A study of Mus musculus with 12 samples.

Results

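The comparison described here is wild-type mouse cerebellum at 29 weeks of age against 12 weeks, a span of adult life after the cerebellar circuit has formed. It covered 7663 of the 7667 named genes of the deposited table, those with a value of 5 or more at one or both ages. The groups came from 6 of the 12 samples of the study, 3 at each age. The study set mice carrying 92 CAG repeats in the Atxn7 gene (fxSCA7 92Q, called 92Q below) beside littermates with repeats of normal length, at the same ages. The wild-type groups, labelled WTQ, carry no expanded allele, and each of their samples pooled whole-cerebellum RNA from 3 mice. No treatment is named in the labels, which give neither the sex of the mice nor the hour of collection. The table holds 1 value per gene and condition, in which the 3 pools of an age had already been combined, so every difference below is a description with no replicate check and no test. The numbers that end the sample titles are all higher at 12 weeks than at 29 weeks, in both genotypes. What they count is not stated, and age and that split cannot be told apart. The 92Q mice supplied a separate pair of ages that shares no value with the wild-type pair but has the same split. Their ratios are given beside the wild-type ones, and the difference between genotypes was not tested.

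The cerebellum times and scales movement. Its granule neurons, the most numerous neurons of the brain, feed Purkinje cells, whose axons are the only output of the cerebellar cortex and end on the deep nuclei. Bergmann glia, astrocytes, oligodendrocytes, microglia and a small interneuron population make up most of the rest. Adult brain tissue also runs the molecular clock: CLOCK and BMAL1 (encoded by Arntl) activate the Per and Cry repressors, which feed back on them. Neuronal firing switches on immediate early genes within minutes, and secretory proteins are folded by chaperones of the endoplasmic reticulum under control of the unfolded protein response.

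Values are a normalized score without a stated unit, rounded to whole numbers by the authors. All 4 conditions had a median of 22, quartiles of 14 and 41 to 42, and sums over named genes between 322446 and 333581, and depth is unknown for such a score. Ratios below are log2((29 weeks + 1)/(12 weeks + 1)), which understates the change of low genes. Rounding by 0.5 of a unit either way spans 0.13 on this scale at a value of 10 and 0.01 at a value of 100. Defining markers of the labelled tissue were present at both ages, among them Purkinje Pcp2 (1661 at 12 and 1324 at 29 weeks), granule Gabra6 (398 and 346), Bergmann Gdf10 (123 and 130), and Mbp (2614 and 2723) of myelin. No row was found for the precursor markers Pdgfra, Cspg4 and Gpr17, nor for Tbr1, Folr1, Col1a1, Col1a2 or Alas2.

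A difference between the pools has to be stated first. Eif2s3y and Ddx3y, which lie on the Y chromosome, were listed at 0 in wild type at 12 weeks and at 6 and 5 at 29 weeks, and they read 12 and 9 in 92Q at 12 weeks and 15 and 11 at 29 weeks. Xist, the RNA of the inactive X chromosome, read 66 and 63 in the wild-type groups and 30 and 25 in the 92Q groups. Age and the share of male mice in the pools therefore cannot be told apart for any gene of the wild-type comparison that differs with sex.

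Most genes stood close to equality. Of the 7663 genes, 74.1% differed by less than 1.1-fold and 1657 had the same value at both ages, and the median log2 ratio was 0.00 with an SD over genes of 0.19. In all 2489 genes (32.5%) were higher at 29 weeks and 3517 (45.9%) were lower, a split that turned round with upper-quartile scaling (4331 and 3323) and quantile normalization (4181 and 3459). At 1.2-fold or more, 188 genes (2.45%) were higher and 292 (3.81%) lower, against 259 and 161 with upper-quartile scaling. At 1.5-fold or more, 17 genes (0.222%) were higher and 11 (0.144%) were lower. In 92Q the same genes split into 3243 (42.3%) higher and 2712 (35.4%) lower, with 420 (5.48%) at 1.2-fold or more higher and 307 (4.01%) lower. Of the 188 genes that were 1.2-fold or more higher in wild type, 164 were also higher between the 92Q ages and 12 were lower. Of the 292 lower genes, 199 were also lower in 92Q and 58 were higher. Across all 7663 genes the 2 age ratios had Pearson's r of 0.33 and Spearman's rho of 0.46. This is a description over genes, which are not independent replicates.

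**Figure D1:**
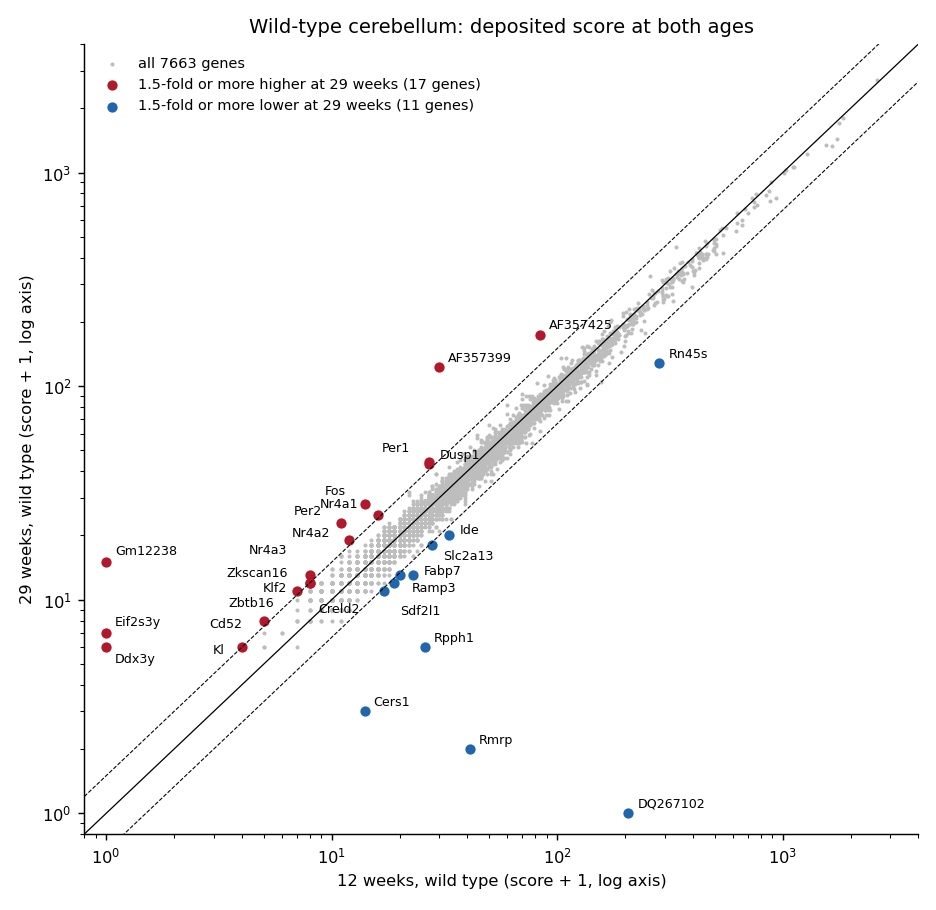
Deposited score plus 1 of each of 7663 genes in wild-type cerebellum at 12 weeks (x axis, log scale) and 29 weeks (y axis, log scale). The solid line marks equal values and the dashed lines 1.5-fold differences on this scale. The 17 red points lie above the upper dashed line or on it, the 11 blue points below the lower one, and several of both lie at values of 0 to 10, where whole-number rounding is coarse.

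The circadian repressors were higher at 29 weeks. The hour of collection is not in the labels, so age and hour cannot be told apart for the clock genes described here. Per2, a core repressor of the clock, read 10 at 12 weeks and 22 at 29 weeks in wild type, and 10 and 16 in 92Q, for log2 ratios of 1.06 and 0.63. Per1 read 26 and 43 in wild type and 23 and 34 in 92Q (0.70 and 0.54), and Per3 read 11 and 16, against 11 and 14 in 92Q (0.50 and 0.32). All 3 Period genes were thus higher at the older age in both genotypes. Cry2 (37 and 47, 0.34) and Cry1 (17 and 20, 0.22), the cryptochrome partners of the Period proteins, were higher as well. So were Bhlhe41 (13 and 17, 0.36) and Bhlhe40 (48 and 54, 0.17), which encode E-box repressors, and Nr1d2 (20 and 25, 0.31), a heme-binding nuclear receptor that represses Arntl. Its relative Nr1d1 read 113 and 120 in wild type (0.09) but 124 and 108 in 92Q (-0.20). Of 12 repressor and regulator genes measured, 11 were higher and 1 lower, 6 of them by 1.2-fold or more, and their median was 0.27 against 0.00 over all genes. The 92Q median of the same 12 genes was 0.20. The kinase genes Csnk1d (40 and 41) and Csnk1e (41 and 44) differed by 0.10 or less.

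Most activators of the loop stood lower. Arntl read 17 at 12 weeks and 13 at 29 weeks (-0.36), with 16 and 11 in 92Q (-0.50), and its partner Clock read 23 and 20 (-0.19). The receptor gene Rora read 65 and 64. Of the 4 activators 3 were lower and 1 higher, with a median of -0.11, or -0.19 after centring on transcript length as described below. Downstream, the 3 proline- and acid-rich transcription factors that bind D-boxes and cycle in many tissues were all higher: Hlf (43 and 58, 0.42), Dbp (80 and 103, 0.36) and Tef (108 and 134, 0.31). In 92Q their ratios were 0.27, 0.21 and 0.28. Nfil3, which encodes a repressor at the same D-boxes, read 15 and 13 (-0.19), and 12 and 10 in 92Q (-0.24). The mitotic kinase gene Wee1 (10 and 13, 0.35) and the deubiquitinase gene Usp2 (48 and 55, 0.19) were higher, Por (28 and 30), Rev1 (10 and 11) and Lgals1 (20 at both ages) were within 2 units, and Tspan4 was lower (36 and 31, -0.21). The 4 Id genes, which encode inhibitors of helix-loop-helix factors, did not share a direction: Id1 read 12 and 15 (0.30), Id3 17 and 19 (0.15), Id4 66 and 64 (-0.04) and Id2 137 and 112 (-0.29). Cdkn1a, which encodes the cell-cycle inhibitor p21, had the lowest ratio of this list (29 and 20, -0.51) and read 25 and 22 in 92Q (-0.18). Over the whole list of 15 output genes 9 were higher and 5 lower, with a median of 0.13.

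The promoters of these clock genes are shown because the E-box CACGTG is the binding motif of CLOCK and BMAL1, and the D-box TTATGTAA that of the Dbp family. Sequences are from RefSeq on GRCm38.p6, taken from the 250 bases before a gene start, on the strand of the gene, with the motif in capitals; both strands were searched, and both motifs are written in their search letters. An E-box lay in 3 of the 8 repressor genes with an entry (37.5%; no entry for Per2, among others), against 10.5% of the 6153 measured genes with one and 6.02% of all 32851 entries. The D-box lay in Per3 alone of the 8, at 2 places, against 0.601% of measured genes and 0.819% of entries. The windows are chr11:69098763-69098808 (plus strand, 161 to 166 bases before the start) for Per1, chr10:85185089-85185134 (minus strand, 55 to 60 bases) for Cry1, chr6:145865548-145865593 (minus strand, 148 to 153 bases) for Bhlhe41 and chr4:151044843-151044890 (minus strand, 198 to 205 bases) for Per3. The Per1 window lies within the annotated span of that gene (chr11:69095217-69109960), before a start inside it. The median log2 age ratio was 0.36 for the 3 genes with an E-box and 0.31 for the 5 without, so a match in these windows did not separate the genes by their ratio.
Per1: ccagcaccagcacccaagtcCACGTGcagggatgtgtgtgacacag
Cry1: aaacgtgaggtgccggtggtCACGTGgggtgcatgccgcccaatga
Bhlhe41: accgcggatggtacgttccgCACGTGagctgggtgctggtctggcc
Per3: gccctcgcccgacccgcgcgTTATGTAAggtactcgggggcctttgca

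**Figure D2:**
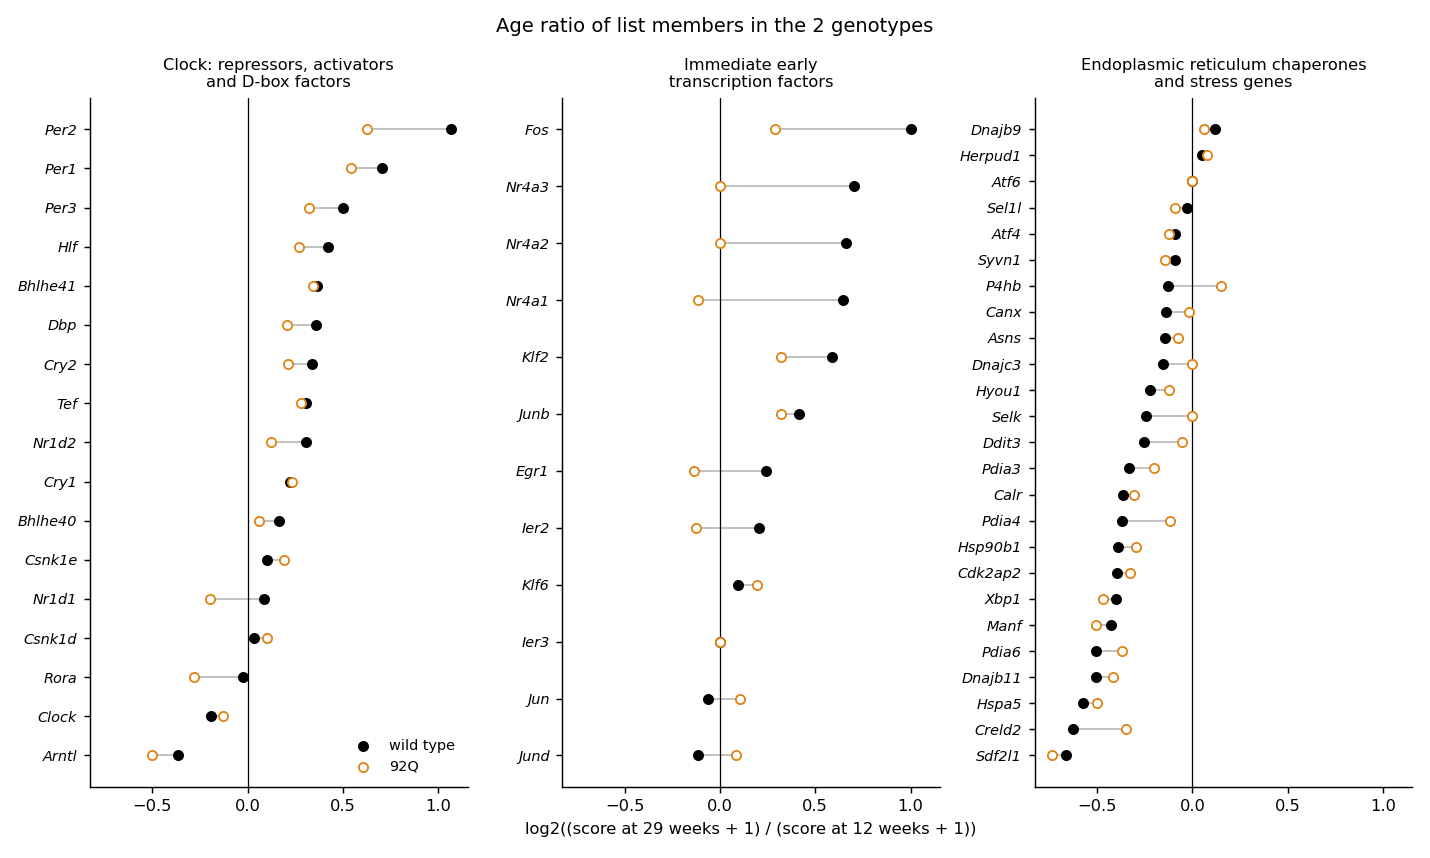
Log2 age ratio, 29 over 12 weeks, of measured clock genes (left), immediate early transcription factor genes (middle) and endoplasmic reticulum genes (right) in wild type (filled) and 92Q (open). The clock and chaperone members lie on the same side of 0 in most pairs of points, while Fos and the 3 Nr4a genes lie between 0.64 and 1.0 in wild type and between -0.12 and 0.29 in 92Q.

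Immediate early transcription factors were also higher at 29 weeks in wild type. Fos, a subunit of the AP-1 factor and the usual mark of recent neuronal activity, read 13 and 27 (log2 ratio 1.0), and 8 and 10 in 92Q (0.29). The 3 genes of the NR4A orphan nuclear receptors went with it: Nr4a3 read 7 and 12 (0.70), Nr4a2 11 and 18 (0.66) and Nr4a1 15 and 24 (0.64). In 92Q these read 5 and 5, 8 and 8, and 12 and 11, so none of the 3 was higher there. Klf2 (7 and 11, 0.58) and Junb (8 and 11, 0.42) were higher in both genotypes, each with a 92Q ratio of 0.32. Egr1, a zinc finger factor, read 21 and 25 (0.24) in wild type and 21 and 19 in 92Q (-0.14). Ier2 read 12 and 14 (0.21) and Klf6 14 and 15 (0.09). Ier3 was at 12 at both ages, and Jun (23 and 22) and Jund (79 and 73, -0.11) were lower. Of the 12 genes, 9 were higher and 2 lower, 5 of them by 1.5-fold or more, with a median of 0.33 in wild type and 0.04 in 92Q. Nr4a3, Klf2 and Junb, 3 genes of this list, reached 10 in wild type at 29 weeks and in no other condition. Their presence in the table rested on that age, so they could enter it only as higher there. The counts and the medians above include all 3. With a minimum of 20 at one or both wild-type ages, 5 genes of the list remained, with a wild-type median of 0.24.

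The effectors and feedback genes of the same response differed less. Dusp1, which encodes a phosphatase that shuts off MAP kinases, read 26 and 42 (0.67), and 24 and 22 in 92Q (-0.12). Spry4, a Ras pathway inhibitor gene, read 10 and 14 (0.45). The others lay between 0.14 and -0.12: Trib1 (9 and 10, and under 10 in 92Q), Sgk1 (40 and 44), Plk2 (10 and 11), Dusp6 (11 and 12), Gadd45g (13 and 14), Homer1 (14 and 15), Spred1 (37 and 39), Spry2 (31 and 32), Dusp5 (88 and 89), Vgf (33 at both ages), Rheb (61 and 57), Btg1 (14 and 13), Nfkbia (28 and 26), Nptx1 (213 and 198) and Arc (12 and 11). Arc, a synaptic gene often read beside Fos, thus differed by 1 unit, and in the other direction. With Per1, which is on this list as well, 12 of 18 were higher and 5 lower, with a median of 0.08. The cyclic AMP response element TGACGTCA lay in Dusp1 and Plk2 of 13 effectors with a promoter entry (3.40% of measured genes) and in none of the 10 transcription factor genes with one, over the same 250 bases and on either strand. Genes that glucocorticoids induce were read beside these. Zbtb16, a zinc finger factor gene, was 1.5-fold higher (6 and 10, 0.65, and 7 and 10 in 92Q). It reached 10 at 29 weeks only, in both genotypes, so its presence in the table rested on that age. Tsc22d3 (67 and 74) and Glul (349 and 376), which encodes glutamine synthetase, differed by 0.14 and 0.11, and 7 of 12 genes of that list were higher and 5 lower, with a median of 0.04.

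Genes of protein folding in the endoplasmic reticulum were lower at 29 weeks. Hspa5, which encodes BiP, the main chaperone of that compartment, read 155 at 12 weeks and 104 at 29 weeks in wild type and 125 and 88 in 92Q, for log2 ratios of -0.57 and -0.50. Sdf2l1, a partner of BiP, read 18 and 11 (-0.66; 14 and 8 in 92Q), and Creld2 read 16 and 10 (-0.63; 13 and 10 in 92Q). Dnajb11, a BiP co-chaperone gene, and Pdia6, a disulfide isomerase gene, each read 33 and 23 (-0.50) and were at 23 at 29 weeks in 92Q as well. These 5 genes were lower at the older age in both genotypes. Manf, which encodes a secreted survival factor held in the same compartment, read 38 and 28 (-0.43). Outside the 5 lowest, Xbp1, a transcription factor gene of the unfolded protein response, read 111 and 84 (-0.40; 96 and 69 in 92Q), Hsp90b1 read 147 and 112 (-0.39), and Calr, which encodes the calcium-binding chaperone calreticulin, read 197 and 153 (-0.36); these and Manf were chosen after their values were seen. Of 25 genes measured, 22 were lower, 12 of them by 1.2-fold or more, and the 2 higher were Herpud1 (55 and 57) and Dnajb9 (22 and 24). Their median was -0.25 in wild type and -0.12 in 92Q, where 19 were lower and 3 higher. All 19 were lower in wild type too. Atf6, a sensor gene of the response, was at 15 in all 4 conditions.

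The endoplasmic reticulum stress element, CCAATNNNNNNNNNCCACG, is the motif that ATF6 and the factor NF-Y bind together, and its matches are shown for the 5 genes with the lowest ratios among the listed genes that hold one. It lay in 8 of the 22 listed genes with a promoter entry (36.4%; none for Atf6, Hyou1 and Manf), against 0.163% of the 6153 measured genes, which is 10 genes, and 0.113% of the 32851 entries, with both strands searched. Besides the 5 printed, Dnajc3, Canx and Syvn1 held it, and the letters were not found in the windows of Sdf2l1 and Dnajb11, whose ratios were among the lowest. The 2 measured genes with a match outside the list were Pan2 (13 at both ages) and Adcy3 (8 and 9). The windows are on GRCm38.p6 from RefSeq: chr2:34772005-34772063 (plus strand, 47 to 65 bases before the start) for Hspa5, chr15:88819500-88819558 (plus strand, 108 to 126 bases) for Creld2, chr12:17266471-17266529 (plus strand, 80 to 98 bases) for Pdia6, chr10:86705618-86705676 (minus strand, 194 to 212 bases) for Hsp90b1 and chr8:84847055-84847113 (minus strand, 144 to 162 bases) for Calr. Capitals mark the outer letters of the motif. In Creld2 and Calr the motif lies on the other strand and reads as its reverse complement. Hsp90b1 held a second match on the other strand, 89 to 107 bases before the start, which is not printed.
Hspa5: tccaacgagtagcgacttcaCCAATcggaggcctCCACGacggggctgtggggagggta
Creld2: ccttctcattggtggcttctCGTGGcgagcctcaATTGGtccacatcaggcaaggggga
Pdia6: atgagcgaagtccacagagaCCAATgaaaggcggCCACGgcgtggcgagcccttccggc
Hsp90b1: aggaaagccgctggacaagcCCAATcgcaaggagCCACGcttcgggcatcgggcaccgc
Calr: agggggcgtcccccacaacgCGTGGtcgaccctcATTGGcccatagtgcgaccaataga

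The 8 listed genes with this element had a median log2 ratio of -0.38 and the 14 without it -0.25. All 8 were lower in wild type, from Creld2 (-0.63) to Dnajc3 (19 and 17, -0.15), Canx (97 and 88, -0.14) and Syvn1 (32 and 30, -0.09). The match is a description of these letters in this window. The list was made of genes of this compartment and its stress response, so its share of matches is not a result about age. Cytosolic heat shock genes gave smaller differences. Hspa8, the constitutive cytosolic chaperone gene, read 45 and 37 (-0.28), Hsph1 read 53 and 45 (-0.23), and Bag3, a co-chaperone gene, was the 1 gene of the 10 on that list that was higher (19 and 23, 0.26). With Hspa5 on it, the list had a median of -0.11. Cirbp, induced by cold, was at 37 at both ages.

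Transcript length moved with the age ratio in wild type. Over 7631 genes with a transcript in GENCODE M21, the ratio and the transcript length had Spearman's rho of 0.50 in wild type and 0.07 in 92Q. The 58 genes with transcripts up to 600 nt had a median of -0.22 in wild type, and the 1157 genes over 6000 nt had 0.07, while the 92Q medians of these classes were 0.00 and 0.03. The 188 genes that were 1.2-fold or more higher had a median transcript of 4590 nt, and the 292 lower ones 1442 nt. The part of length in the lists below was not tested further than by centring each ratio on the median of its class among 10 equal classes of length, which is called the length-centred ratio. Centring took the chaperone median from -0.25 to -0.22 and left the clock repressor median at 0.27.

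**Figure D3:**
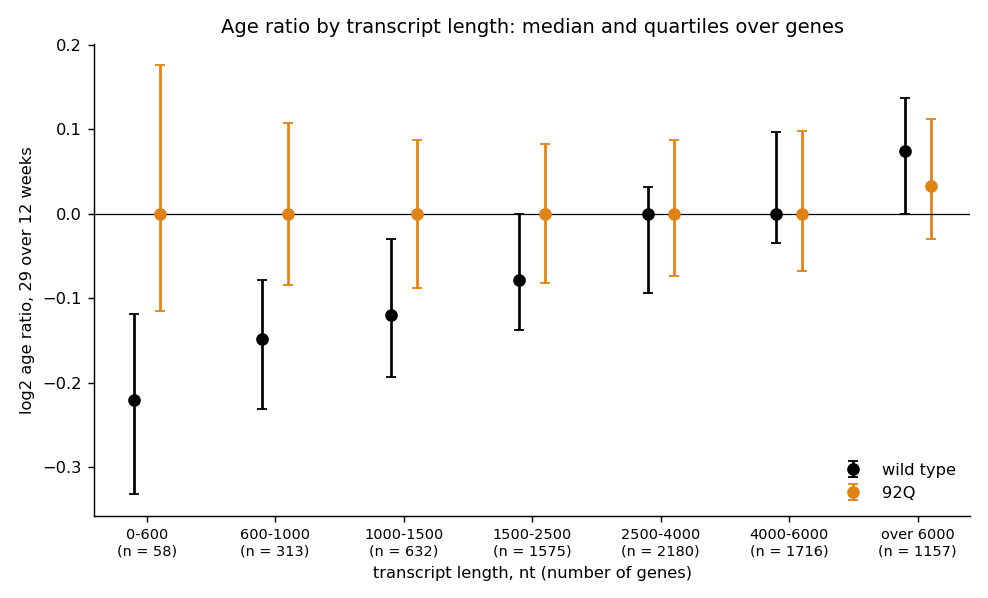
Median log2 age ratio with quartiles over genes (bars) in 7 classes of transcript length, in wild type (black) and 92Q (orange). The wild-type medians go from -0.22 in the shortest class to 0.07 in the longest, and the 92Q medians lie between 0.00 and 0.03.

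Short transcripts of respiration and translation were lower at 29 weeks in wild type. Among 73 nuclear genes of the respiratory chain, 68 were lower and 1 higher, 14 of them by 1.2-fold or more lower, with a median of -0.20. Their median transcript was 955 nt, and the length-centred median was -0.08. In 92Q the same genes split into 33 higher and 32 lower, with a median of 0.00. The direction was shared by every complex: 34 of 35 complex I genes, all 4 of complex II, all 8 of complex III, 9 of 12 of complex IV and 13 of 14 of the ATP synthase were lower. The lowest ratios were those of the ATP synthase genes Atp5j2 (83 and 61, -0.44; 73 and 73 in 92Q) and Atp5e (135 and 101, -0.42; 114 and 125 in 92Q), the complex I genes Ndufa2 (72 and 53, -0.43; 60 and 59 in 92Q) and Ndufv3 (234 and 183, -0.35; 211 and 209 in 92Q), and Cox6c of cytochrome oxidase (119 and 93, -0.35; 100 and 109 in 92Q). The 92Q ratios of these 5 lay between -0.02 and 0.13, and the difference between genotypes was not tested. The 1 higher gene was Cox6b2 (17 and 18), an isoform best known from testis.

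Cytosolic ribosomal protein genes gave a like picture: 16 of 21 were lower and 3 higher, with a median of -0.09 (-0.04 with quantile normalization), a length-centred median of 0.01 and a 92Q median of 0.11. Rplp1, a stalk protein gene, read 76 and 53 (-0.51), but 59 and 67 in 92Q (0.18), and Rpl41 read 11 and 8 and reached 10 in no other condition than wild type at 12 weeks. The higher ones included Rps14 (12 and 14, 0.21) and Rps15a (20 and 21). All 12 histone genes measured were lower, with a median of -0.17 (-0.09 length-centred, -0.06 in 92Q). Hist3h2ba, a core histone gene, read 24 and 17 (-0.47), and H1f0, the linker histone of non-dividing cells, read 110 and 90 (-0.29) and 109 and 92 in 92Q (-0.24). Families with many processed copies in the genome, ribosomal proteins among them, can share reads between copies, and their values are uncertain to that extent.

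Purkinje cell markers were lower on balance. In bulk tissue, fewer cells of a type and less RNA per cell cannot be told apart. Of 43 Purkinje cell genes, 31 were lower and 10 higher, 7 of them by 1.2-fold or more lower, with a median of -0.12 in wild type that became -0.04 with quantile normalization. The length-centred median was -0.11. The 8 genes with transcripts under 2500 nt had a wild-type median of -0.27, and the 35 others -0.07. In 92Q, 39 of the 43 were lower and the median was -0.51. Pcp2, which modulates G protein signalling in Purkinje cells, read 1661 and 1324 in wild type (-0.33) and 1241 and 871 in 92Q (-0.51). Gng13, a G protein gamma subunit gene, read 935 and 759 (-0.30; 641 and 386 in 92Q). The length-centred wild-type ratios of Pcp2 and Gng13 were -0.23 and -0.16. Casq2, a calcium store protein gene, read 21 and 16 (-0.37), and Mdfi read 15 and 12 (-0.30). All 31 genes that were lower in wild type were lower in 92Q too. The higher ones included Lhx1, a transcription factor gene (22 and 26, 0.23; 22 and 18 in 92Q), and Gad2, which encodes a GABA-synthesizing enzyme (50 and 57, 0.19). All 3 neurofilament genes were higher in both genotypes: Nefl read 134 and 154 (0.20), Nefm 56 and 62 (0.14) and Nefh 62 and 66 (0.09), and their 92Q median was 0.18.

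Granule neuron genes were divided. Of 41, 27 were lower and 9 higher, with a median of -0.04 that became 0.00 with quantile normalization, and 8 were lower by 1.2-fold or more. Crtam, an immunoglobulin-family adhesion gene, read 50 and 35 (-0.50; 46 and 33 in 92Q). Grm4, the presynaptic glutamate receptor gene of parallel fibres, read 191 and 143 (-0.42; 187 and 100 in 92Q), and Car4, a membrane carbonic anhydrase gene, read 168 and 128 (-0.39; 181 and 123). Calb2, which encodes calretinin, read 325 and 249 (-0.38), and Nrep read 545 and 420 (-0.38; 538 and 350). These 5 genes were lower at 29 weeks in both genotypes. Among transcription factor genes of the list, Neurod1 (327 and 319) and Zic1 (334 and 333) differed little, while Zic4 (15 and 12, -0.30) and Pax6 (50 and 45, -0.15) were lower. The highest ratios were those of Mef2d, an activity-regulated factor gene (52 and 62, 0.25), Kcnk9 (14 and 16) and Cntn2 (51 and 56). Over all 7663 genes compared, of any cell type, 3517 (45.9%) were lower and 1657 equal, a split that upper-quartile scaling and quantile normalization turned round. The count that follows was not repeated under those scalings. Among genes of any cell type that read 200 or more at both ages, 137 of 179 were lower and none was equal, with a median of -0.06. The 10 lowest of these held Dbi, an acyl-CoA binding protein gene (395 and 290, -0.44; 370 and 349 in 92Q), Calb2, Nrep, Pcp2, Gng13, Cbln1 (507 and 414, -0.29), which organizes the parallel fibre synapse, Pcp4 (1749 and 1432, -0.29), Ndufa3 (402 and 332), the vesicular glutamate transporter gene Slc17a7 (242 and 201, -0.27) and Tmsb4x (322 and 269).

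Interneurons and the deep nuclei pointed elsewhere. Of 22 interneuron and unipolar brush cell genes, 14 were higher and 6 lower, with a median of 0.05 (0.10 with quantile normalization). Sst, the somatostatin gene, read 59 and 73 (0.30; 48 and 75 in 92Q), and Eomes, which marks unipolar brush cells, read 16 and 19 (0.23) while it read 11 and 6 in 92Q. The peptide genes Npy (55 and 43, -0.35) and Cck (147 and 117, -0.33) were lower, as was Pvalb (878 and 734, -0.26). Of 13 deep nuclei and brainstem genes, 11 were higher and 1 lower, 4 of them by 1.2-fold or more, with a median of 0.17 in both genotypes. Among the 11 are the 3 neurofilament genes, which are on the Purkinje cell list as well. Slc17a6, which encodes the vesicular glutamate transporter of these projection neurons, read 16 and 21 (0.37; 14 and 24 in 92Q). Resp18, a neuroendocrine gene, read 69 and 86 (0.31), Tac1, the substance P precursor gene, 7 and 10 (0.46), and Th, which encodes tyrosine hydroxylase, 8 and 11 (0.42; 7 and 5 in 92Q). Tac1 and Th, which are among those 4, reached the table's floor of 10 in wild type at 29 weeks and in no other condition, so their presence in the table rested on the age where they were high. How much deep nuclear or brainstem tissue each dissection held was not tested.

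**Figure D4:**
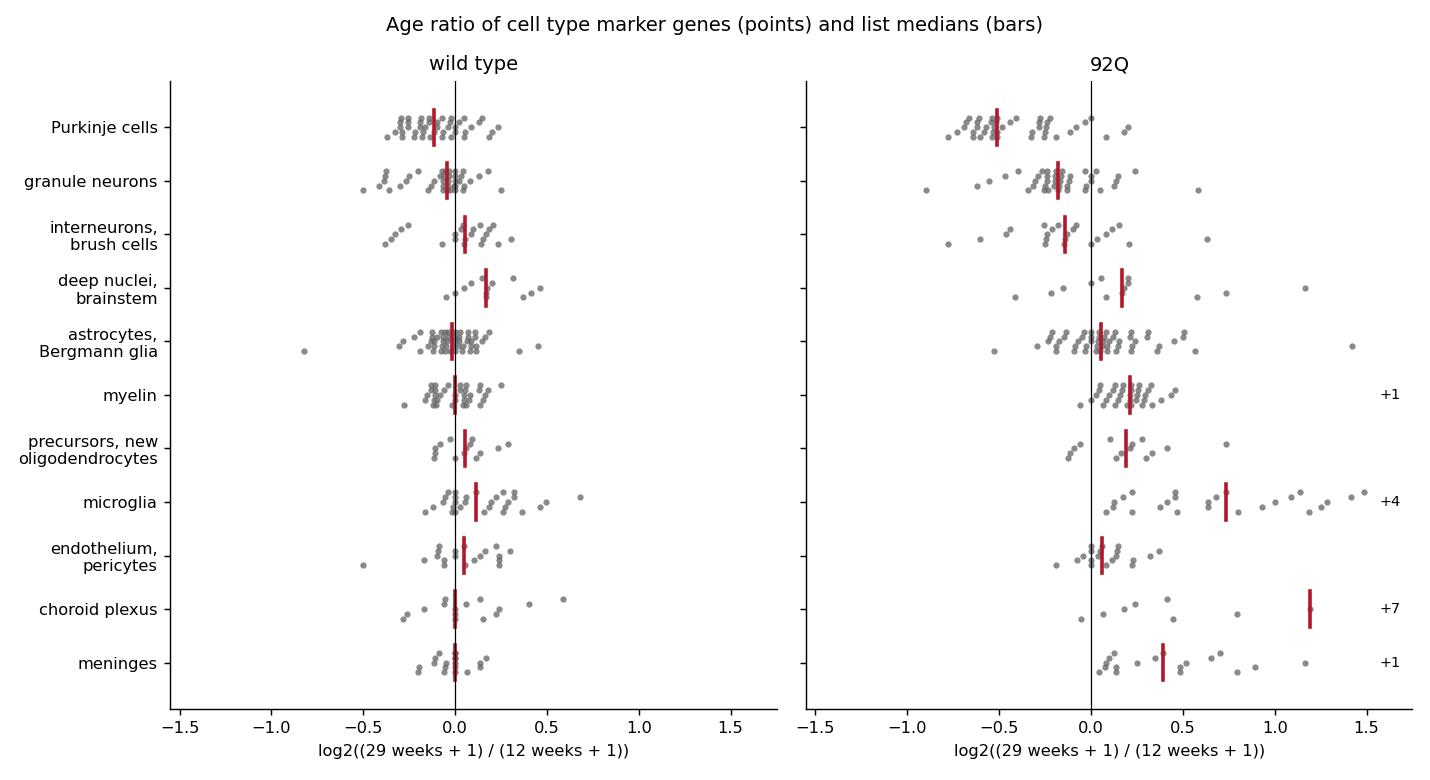
Log2 age ratio of each marker gene (points) and the median of each list (red bars) in wild type (left) and 92Q (right); a number at the right edge counts members beyond 1.5. In wild type the list medians lie between -0.12 (Purkinje cells) and 0.17 (deep nuclei and brainstem), and in 92Q between -0.51 (Purkinje cells) and 1.19 (choroid plexus).

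Glial genes held a few single members far from their list. Fabp7, a lipid carrier of radial glia and Bergmann glia best known from the developing brain, read 22 and 12 (-0.82; 25 and 17 in 92Q, -0.53). Hopx, a homeodomain protein gene of the same cells, read 104 and 84 (-0.30; 97 and 79), and Timp4, an astrocyte metalloproteinase inhibitor gene, 127 and 104 (-0.29). On the other side Slc6a11, which encodes the astrocyte GABA transporter GAT3, read 59 and 81 (0.45; 57 and 85 in 92Q, 0.57), and Etnppl, which degrades phosphoethanolamine, read 32 and 41 (0.35; 28 and 40). The rest were near equality: of 52 astrocyte and Bergmann glia genes, 21 were higher and 27 lower, with a median of -0.02 that became 0.02 with upper-quartile scaling. Gfap, the intermediate filament gene of reactive astrocytes, read 88 and 95 in wild type (0.11) and 87 and 235 in 92Q (1.42).

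Myelin genes were balanced. Of 35, 17 were higher and 16 lower, 1 by 1.2-fold or more, and the median was 0.00, where 33 of the 35 were higher in 92Q with a median of 0.21. Mog, a surface protein gene of mature myelin, had the lowest ratio (56 and 46, -0.28; 53 and 60 in 92Q), and Myrf, the master transcription factor gene of myelination, the highest (15 and 18, 0.25; 15 and 21). Genes of precursors and newly formed oligodendrocytes split into 8 higher and 5 lower of 14, with a median of 0.05 (0.01 length-centred). Tnr, a matrix protein gene, read 8 and 10 (0.29), Tcf7l2, which marks newly formed cells, 16 and 19 (0.23), and Bcas1, also of that stage, 75 and 80 (0.09). Tnr (9 and 10 in 92Q) reached 10 at 29 weeks only, in both genotypes, so its presence in the table rested on that age. Ccnd1, the cyclin gene of dividing progenitors, read 15 and 12 (-0.30), and Gap43, a growth cone gene, 170 and 147 (-0.21). In the list of 17 cell cycle and progenitor genes 12 were lower and 2 higher, with a median of -0.09, and -0.04 length-centred.

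Microglial genes were slightly higher in wild type. Of 29, 18 were higher and 7 lower, where 32.5% of all genes were higher and 45.9% lower. By 1.2-fold or more, 10 were higher, against 2.45% of all genes. The median was 0.12 (0.19 length-centred, 0.08 with quantile normalization). In 92Q the median was 0.74 and all 29 were higher. Ctss, a lysosomal protease gene, read 21 and 30 (0.49; 22 and 55 in 92Q), Laptm5 read 7 and 10 (0.46; 8 and 17), and Cd52, a leukocyte surface antigen gene, read 4 and 7 (0.68; 6 and 25). Laptm5 reached 10 at 29 weeks only, in both genotypes, so its presence in the table rested on that age. Ly86 (6 and 8), Selplg (7 and 9) and Cx3cr1 (7 and 9), which encodes the fractalkine receptor, were higher by 2 units each. Of the complement C1q genes, C1qb read 28 and 34 (0.27), C1qc 25 and 28 (0.16) and C1qa 25 and 26 (0.05), against 92Q ratios from 1.19 to 1.42. The antigen presentation genes H2-K1 (9 and 13, 0.49), Cd74 (4 and 6, 0.49) and B2m (173 and 204, 0.24) were higher, while H2-D1 read 41 and 40. Many of these values lie under 10, where 1 unit is a large step.

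The 92Q count of microglial genes has to be read with the table's floor of 10, which 8 of the 29 reached in that genotype only. For choroid plexus, the epithelium that secretes cerebrospinal fluid, the same held for 5 of 15 genes. In wild type its list had a median of 0.00, with 7 higher and 5 lower. Ttr, which encodes the thyroid hormone carrier of that epithelium, read 336 and 445 (0.40) and 6 and 1403 in 92Q, Kl, which encodes klotho, read 3 and 5 (0.58; 0 and 14), and Kcnj13 was at 7 at both ages. These levels follow how much choroid plexus a dissection holds as well as expression, and that share was not tested. Meningeal genes had a median of 0.00 as well, with Ptgds, the prostaglandin D synthase gene, at 1551 and 1349 (-0.20).

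Vessels and matrix differed gene by gene. Cldn5, the tight junction gene of brain endothelium, read 16 and 11 (-0.50; 15 and 13 in 92Q), whereas Slc2a1, which encodes the glucose transporter of the blood-brain barrier, read 51 and 63 (0.30; 54 and 70), and Epas1, a hypoxia-inducible factor gene, 38 and 45 (0.24). Of 19 endothelial and pericyte genes, 10 were higher and 7 lower, with a median of 0.05. Extracellular matrix genes were higher in 19 of 26 and lower in 6, with a median of 0.08 (0.04 length-centred). Timp2 (49 and 65, 0.40; 48 and 78 in 92Q) and Timp3 (40 and 51, 0.34; 41 and 55), inhibitors of metalloproteinases, led this list, and Timp4 of the same family was lower in both genotypes. Mmp14, a membrane metalloproteinase gene, read 10 and 7 (-0.46; 9 and 9) and reached 10 at 12 weeks in wild type only. The sum of the 3 inhibitor genes was 216 at 12 weeks and 220 at 29 weeks.

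Imprinted and long noncoding transcripts were higher in 17 of 27 and lower in 9, with a median of 0.06 (0.10 with quantile normalization). Peg3, a paternally expressed zinc finger gene, read 69 and 91 (0.39; 78 and 98 in 92Q), Grb10, a growth inhibitor gene, 12 and 16 (0.39; 13 and 19), and Impact, a translation regulator gene, 68 and 81 (0.25; 66 and 80). Snhg11, a neuronal noncoding host gene, read 258 and 326 (0.34; 296 and 340), and was with Ttr the highest of the genes at 200 or more at both ages. The others of those 10 differed by 0.15 or less, among them Ncdn (200 and 222), Meg3 (314 and 344), Malat1 (329 and 356), Glul, Prrt2 (290 and 312), Eef2 (262 and 280) and Kif5a (228 and 243). Among lower ones, Snhg6 read 11 and 8, and Mkrn1, a coding gene counted on this list but not known as imprinted, 29 and 24 (-0.26). The gamma protocadherins, a cluster of adhesion genes that give single neurons distinct surface identities, were higher in 10 of 13 and lower in 2, with a median of 0.21 in wild type and 0.10 in 92Q. Pcdhga4 read 8 and 11 (0.42), Pcdhgb6 12 and 15 (0.30), and Pcdhgc3, the lowest, 120 and 112 (-0.10). Of the 13, 1 reached the table's floor of 10 in wild type at 29 weeks and in no other condition, and 1 in a single 92Q condition only. They share their 3' exons, so reads in those exons can be assigned to any of them, and the 13 are not 13 separate observations. Over all 48 protocadherin, cadherin and synaptic adhesion genes 27 were higher and 11 lower, with a median of 0.05.

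**Figure D5:**
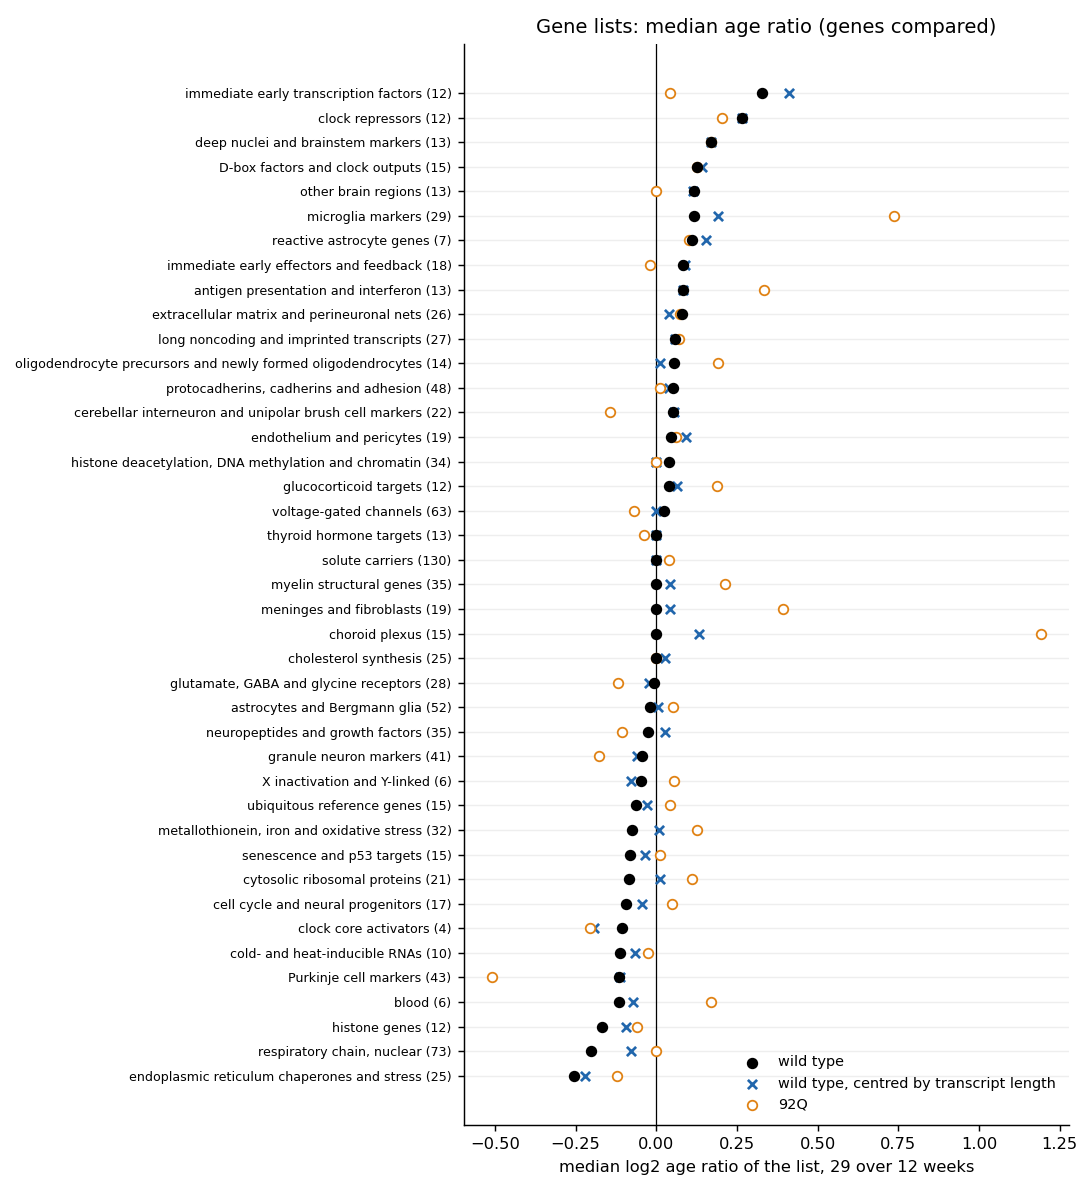
Median log2 age ratio of 41 gene lists in wild type (black), in wild type after centring by transcript length (blue crosses) and in 92Q (open orange), with the number of genes compared in brackets. The wild-type medians run from -0.25 for endoplasmic reticulum genes to 0.33 for immediate early transcription factors, and those of respiratory, ribosomal and histone genes lie nearer 0 after centring. The list of 7 short noncoding RNAs is not drawn.

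Apart from the Y-linked genes, most of the largest ratios belonged to short transcripts, the ribosomal RNA precursor and the overlapping row of Cers1. Rmrp, the RNA of the nuclease MRP, read 40 and 1 in wild type and 7 and 1 in 92Q. Rpph1, the RNA of ribonuclease P, read 25 and 5, and 6 and 4 in 92Q. Both reached 10 in wild type at 12 weeks and in no other condition, so they were in the table only through the age where they were high. Rn45s, the ribosomal RNA precursor, read 283 and 127 (-1.15; 159 and 124 in 92Q, -0.36). These 3 RNAs carry no poly(A) tail of the messenger kind, and all 3 were lower at 29 weeks in both genotypes. DQ267102, with a transcript of 72 nt, read 206 and was listed at 0 at 29 weeks, with 71 and 67 in 92Q. Other short rows went the opposite way between genotypes: AF357399 read 29 and 122 in wild type and 75 and 43 in 92Q, and AF357425 read 83 and 173 against 171 and 81. Gm12238 was listed at 0 at 12 weeks and at 14 at 29 weeks, with 9 and 8 in 92Q, and likewise passed the floor of 10 through wild type at 29 weeks alone. Short transcripts offer few positions for a read of 50 bases, and their values are uncertain for that reason. Cers1, a ceramide synthase gene of neurons, read 13 and 2 (-2.22, and 16 and 7 in 92Q), while Gdf1, which shares its locus, was 28 and 38. The sum of both rows was 41 at 12 weeks and 40 at 29 weeks in wild type. How reads were divided between the 2 rows was not tested.

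Of the other genes at 1.5-fold or more, 3 lower ones belonged to no group above. Ide, which encodes the insulin-degrading enzyme, read 32 and 19 (-0.72; 36 and 26 in 92Q), Slc2a13, a myo-inositol transporter gene, 27 and 17 (-0.64; 29 and 24), and Ramp3, a partner of the calcitonin receptor family, 19 and 12 (-0.62; 17 and 12). Zkscan16, a zinc finger gene, read 7 and 11 (0.58) in wild type and the same values in 92Q. It reached the table's floor of 10 at 29 weeks only, in both genotypes, so its presence in the table rested on that age. All 11 lower genes were lower in 92Q as well, while of the 17 higher ones 10 were higher there, 5 lower and 2 equal. Ramp3, Kl, Klf2 and Zkscan16 lay closest inside the threshold. Just outside it were Hspa5 (-0.57) and, at 0.54 each, Il33, an alarmin gene of glia (21 and 31; 23 and 35 in 92Q), Fam163b (10 and 15; 9 and 20), Sncg (10 and 15; 13 and 21) and Arhgdig (10 and 15; 12 and 17). All 5 had the same direction in 92Q.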

How the data were processed

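Per the labels' protocols, total RNA was sequenced with 50-base single reads. Per the submitters' processing notes the build was mm10 and the tools were Cuffdiff 1.3.0, Bowtie 0.12.7 and SAMtools 0.1.12a, without roles; no source used here states the annotation, filters or normalization. The deposited values are a whole-number score per gene and condition; equal medians were read as normalization by the authors before deposit, so depth is unknown and no count test was made. A shorter deposited table of selected genes was not used. Of 7684 rows, 17 named by a bare number were left out. Every row reached 10 in at least 1 condition.

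Log2 ratios used a pseudocount of 1, a minimum of 5 in either wild-type column, and thresholds of 1.5-fold and 1.2-fold, the latter chosen after values were seen (Python 3.11.15, pandas 2.3.3, numpy 2.4.6, scipy 1.17.1, matplotlib 3.10.9). The calculation was tested on simulated data. Genes were named by rule: all at 1.5-fold or more, all clock and immediate early genes, up to 5 each way from every other list, and the 10 largest ratios each way among genes at 200 or more. The genes and the 42 lists were chosen with earlier results of these data known; genes outside the rule (such as those named for a promoter motif) and sub-lists (complexes, neurofilaments, NR4A, C1q, gamma protocadherins, inhibitors) were chosen after values were seen. Of 7667 names, 7266 were current RefSeq symbols. Lengths are those of the longest coding transcript in GENCODE M21 or, for genes with none, of the longest transcript; promoters are from RefSeq (GRCm38.p6). Alternatives were other pseudocounts, minimums and scalings, rounding against the direction, and, added after seeing the data, length centring and omission of short RNA, sex-linked and choroid plexus rows. Some genes that the rule names are not reported here.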

Additional observations from a re-analysis of the deposited data

How the results depend on the processing

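No paired analysis was possible because the table merges the 3 pools of a condition into 1 value, so no replicate could be left out either. The count of genes at 1.5-fold or more higher, 17, became 9 with a pseudocount of 5, 7 with a minimum of 20, 8 with rounding against the direction and 11 without short RNA, sex-linked and choroid plexus rows. The count lower, 11, became 7 under each of these 4 and 7 with length-centred ratios. The clock repressor median of 0.27 became 0.19 with a minimum of 20. The myelin median of 0.00 became 0.0346 with upper-quartile scaling, 0.0392 with quantile normalization and 0.0412 with length centring. The other 49 values stayed within 1.5 times for counts, and for medians within the shift that whole-number rounding gives, and none reversed; the count higher reached 24 with length-centred ratios, the immediate early median lay between 0.23 and 0.41, and the precursor median between 0.00 and 0.09. Scaling decides the split of small differences: upper-quartile scaling, which multiplies the ratios by a common factor, gave 4331 higher and 3323 lower in all, and 259 and 161 at 1.2-fold. Quantile normalization gave 4181 and 3459 in all, and length centring gave 187 and 129 at 1.2-fold and 24 and 7 at 1.5-fold. Purkinje and respiratory chain medians stayed negative (-0.08 and -0.17 with upper-quartile scaling, -0.04 and -0.14 with quantile normalization, and -0.08 for the respiratory chain with length centring). The granule neuron median became -0.01 with upper-quartile scaling and 0.00 with quantile normalization. The astrocyte and receptor medians changed sign within 0.05 of 0. The causes were not tested. Low values limit the rest, since at 10 a single unit is already a log2 step of the size of most list medians.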

Other observations

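Families that carry current or solutes were near equality as groups, with single members apart. Of 63 voltage-gated channel genes, 33 were higher at 29 weeks and 26 lower, with a median of 0.02 (0.08 with quantile normalization). Scn1a, a sodium channel gene, read 30 and 35 (0.22), and Kcnk3, a leak potassium channel gene, 68 and 55 (-0.30; 66 and 51 in 92Q). Of 28 glutamate, GABA and glycine receptor genes 13 were higher and 14 lower, with a median of -0.01 that became 0.03 with upper-quartile scaling. Gabra3 read 11 and 15 in both genotypes (0.42), whereas the granule cell subunit genes Gabrd (108 and 84, -0.36; 106 and 85 in 92Q) and Gabra6 (398 and 346, -0.20; 417 and 337) were lower. Of 130 solute carrier genes, 47 were higher, 48 lower and 35 equal; Slc16a11 read 45 and 36 (-0.31; 41 and 30).

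Chromatin regulators of long transcripts were higher more often than lower (19 and 9 of 34, median 0.04, and 0.00 length-centred), led by Kmt2a (23 and 28, 0.27), a histone methyltransferase gene, and Chd5 (9 and 11). Hdac2, a histone deacetylase gene, read 31 and 27 (-0.19). Genes of cholesterol synthesis had a median of 0.00, with the regulator gene Srebf1 at 16 and 19 (0.23; 17 and 24 in 92Q). Of 32 metal and oxidative stress genes 22 were lower and 5 higher (median -0.08, and 0.01 length-centred): Tfrc, the transferrin receptor gene, read 22 and 17 (-0.35; 22 and 18), and Txnip, a redox regulator gene, 11 and 14 (0.32; 9 and 15). Genes often used as references were lower in 10 of 15 and higher in 3 (median -0.06, and 0.00 with quantile normalization), with Actb at 397 and 385. Among 15 genes of senescence and the p53 response, the lowest after Cdkn1a was Bax (27 and 22, -0.28), and Sesn3 read 17 and 20 (0.22; 17 and 22). Targets of thyroid hormone had a median of 0.00, with Nrgn at 69 and 78 (0.17; 49 and 84) and Camk4 at 108 and 96 (-0.17; 113 and 89).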
